A study of Rattus norvegicus with 2 samples.

Results

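The synaptotagmins are a family of vesicle membrane proteins, and their transcripts were examined in cultured rat cortical neurons after knockdown of PIWIL1. Of the 10 synaptotagmin genes searched by symbol, 7 were matched among the 9894 genes of the series. These were Syt1, Syt2, Syt3, Syt4, Syt5, Syt6 and Syt11. A symbol was found for 9337 of the 9894 genes, so a gene not matched by symbol may still be in the series. Members, markers and list genes counted as listed below are those matched in this way. Syt7, Syt12 and Syt13 were not analysed here, and none of the 7 other family members looked up (Syt8, Syt9, Syt10, Syt14, Syt15, Syt16 and Syt17) was matched. The genes were chosen by family name and by being listed, which took at least 2 copies of a tag in one of the libraries, and with the fall of Syt4 already known. The ratios between the libraries are therefore a description, and the calls of members are given as values with no weight as evidence.

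The data came from 2 libraries. One was made from neurons of Sprague-Dawley rat cortex, dissociated at E16, electroporated with the control plasmid (Scramble, which carries a scrambled sequence) and kept for 48 h in Neurobasal medium with serum and B27. The other was made from neurons handled in the same way but electroporated with a plasmid for RNAi of PIWIL1 (PIWIL1 RNAi). Each condition had 1 library, so there was no replicate check. Which of the study's RNAi sequences was used, how many embryos were pooled and whether electroporated cells were separated from the others is not given in the sources used here.

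A synaptotagmin is anchored in a membrane by its amino-terminal part and carries tandem C2 domains toward its other end. In Syt1 and its closest relatives these domains bind calcium and phospholipids and trigger SNARE-mediated fusion of vesicles with the plasma membrane. Syt4 and Syt11 carry a substitution in a calcium-binding loop of the first of these domains. Syt4 is found in neurons on dense core vesicles, which carry neuropeptides and neurotrophins, and its transcription is raised by depolarization.

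Each transcript was read as 21-base tags that start at a CATG site, and sites were numbered from the 3′ end of the transcript. The abundance of a gene is the number of copies of all its tags, and the TPM is that number per 1000000 clean tags of the library. The tags of Syt4 with 20 or more copies over the 2 libraries, and the most copied tags of Syt5 and Syt11, are shown because the difference between Syt4 and its relatives rests on them. The capitals mark the last 2 bases, which matter below.
Syt4 site 1: catggtgtaagggagatgcTG
Syt4 site 2: catgtctgaagaactgtgtGA
Syt4 site 3: catgtaaattaacttttttGT
Syt4 site 4: catgggatgtagtgtagctCG
Syt4 site 8: catggccacctaagtttttTA
Syt4 site 12: catgtacaaatgattgtctTA
Syt5 site 1: catgactctccctactcccCA
Syt11 site 1: catgtctaatacaaacaagAA

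The copies on genes numbered 1947600 (Scramble) and 1865913 (PIWIL1 RNAi), out of 3386865 and 3303360 clean tags. All 12 neuron markers looked up were listed, and 9 of them had a log2 ratio below 0 (median -0.49), with summed levels of 4680 TPM (Scramble) and 4087 TPM (PIWIL1 RNAi). Progenitor and radial glia markers (8 of 9 listed) summed to 1093 and 1370 TPM, although 7 of the 8 had a ratio below 0, because Vim alone went from 789.5 to 1127 TPM. Of the 5 microglia markers 3 were listed, with 834.1 and 2207 TPM. Nearly all of that was Cd68, which had 99.3% of its copies on tags ending in 8 or more A, and Cx3cr1 and Ptprc were not matched. Fibroblast markers (5 of 5) summed to 546.2 and 523.1 TPM. Astrocyte (3 of 5), oligodendrocyte lineage (6 of 6) and erythroid markers (2 of 3) each stayed at or below 24.2 TPM in both libraries. None of the 4 endothelial markers was matched. Piwil1 was not matched, so the knockdown was not checked in these libraries.

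Syt4, the member with the most copies in both libraries, was much lower in the PIWIL1 RNAi library. Its 907 copies (267.8 TPM) under Scramble compared with 230 copies (69.6 TPM) under PIWIL1 RNAi. This is a 3.85-fold lower level, a log2 ratio of -1.94 with an exact 95% confidence interval of -2.16 to -1.73. All intervals treat tag copies as separate counts and leave out variation between cultures. PCR can give several copies of the same molecule, so they may be too narrow even for counting error. In such bulk cultures fewer cells of a type and less RNA per cell cannot be told apart. Neuron markers were also lower on the median, and their part in the difference was not tested.

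By abundance Syt4 stood at rank 386 of the 9496 genes listed in the Scramble library and at rank 1547 of the 9297 genes listed in the PIWIL1 RNAi library. Among 1015 other genes with 569 to 2270 copies over the 2 libraries, which is 0.5 to 2 times the copies of Syt4, none had a lower log2 ratio. The genes closest to it in that range were Stoml2 (591 and 192 copies, log2 ratio -1.59), Sh3bgrl1 (-1.47), Ube2m (-1.30), Pld3 (-1.23) and Sema3c (-1.23). They differed from Syt4 by 0.36 to 0.72 on the log2 scale over the 2 libraries. The median log2 ratio in this range of copies was -0.0099. Of the 6010 genes listed in both libraries with 50 or more copies over the 2, 6 had a lower log2 ratio than Syt4.

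**Figure D1:**
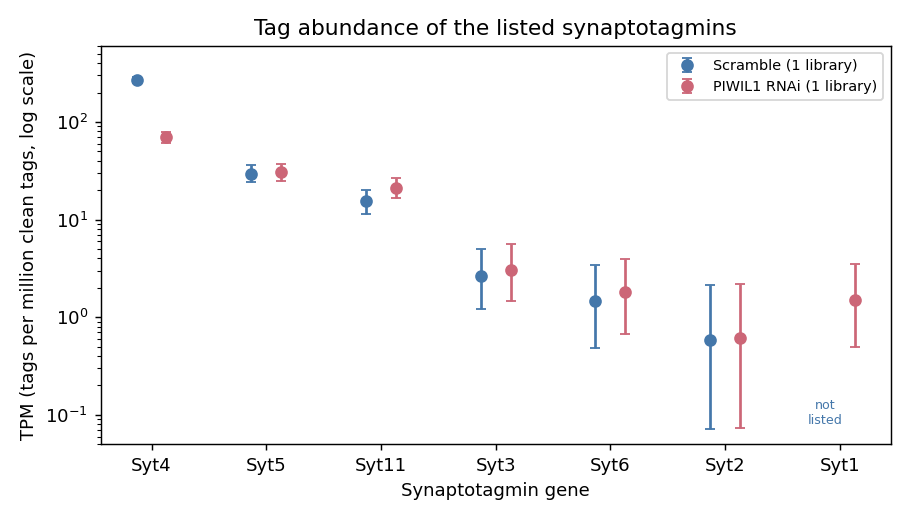
TPM of the 7 listed synaptotagmins (log scale) in the Scramble and the PIWIL1 RNAi library, with exact 95% Poisson intervals for counting error. The points of Syt4 stand apart (267.8 and 69.6 TPM), while the intervals of the other genes overlap between the libraries; Syt1 was not listed in the Scramble library.

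Syt11, the closest relative of Syt4, had 52 copies (15.4 TPM) under Scramble and 70 copies (21.2 TPM) under PIWIL1 RNAi. Its log2 ratio was 0.46, with an interval of -0.07 to 1.01 that lies wholly above that of Syt4. Since the interval includes 0, a difference in Syt11 was not detectable at this depth.

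Syt5, a calcium-binding member for which RefSeq also lists the synonym SytIX, had 100 copies (29.5 TPM) and 101 copies (30.6 TPM). The log2 ratio of 0.05 (interval -0.36 to 0.46) was the most precise one among the relatives. In the Scramble library the TPM of Syt4 was 9.07 times that of Syt5, and in the PIWIL1 RNAi library it was 2.28 times. TPM here does not take account of the number of CATG sites. Per listed site, Syt4 had 53.4 copies in the first library and 17.7 in the second, Syt5 had 20 and 25.2, and Syt11 had 10.4 and 14.0. On this scale Syt4 was above both relatives under Scramble and below Syt5 under PIWIL1 RNAi. The divisor is the number of sites with a listed tag, which depends on depth (17 and 13 for Syt4, 5 and 4 for Syt5). The order on this scale is therefore not one of transcript levels. At site 1 alone Syt4 had 616 and 142 copies, and Syt5 had 76 and 90.

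The other members were read at very low depth. Syt3 and Syt6, calcium-binding members that form disulfide-linked dimers, had 9 and 10 copies (2.66 and 3.03 TPM) and 5 and 6 copies (1.48 and 1.82 TPM). Syt2, a fast calcium sensor of synaptic vesicles, had 2 copies in each library, the fewest with which a tag could be listed. Syt1, the main calcium sensor of fast transmitter release in the forebrain, was not listed in the Scramble library and had 5 copies (1.51 TPM) in the PIWIL1 RNAi library. Its copies lay on tags of sites 2 and 7, the tag at site 1 was not listed, and for Syt2 and Syt6 no tag at site 1 was listed either. These counts therefore give no level of the whole Syt1, Syt2 or Syt6 transcript.

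Side by side, the 5 relatives listed in both libraries had log2 ratios from 0.04 (Syt2) to 0.46 (Syt11), with a median of 0.19, against a median of -0.085 over the 8899 genes listed in both libraries. Every one of the 5 intervals included 0. Those of Syt3 (-1.27 to 1.66) and Syt6 (-1.68 to 2.35) did not reach down to the log2 ratio of Syt4, whereas that of Syt2 (-3.75 to 3.82) did. Together these genes had 168 copies under Scramble and 189 under PIWIL1 RNAi, a log2 ratio of 0.21 (interval -0.10 to 0.51). With the correction for tag ends described below, Syt2 (-0.08) and Syt5 (-0.10) lay slightly below 0, and the median was 0.02.

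**Figure D2:**
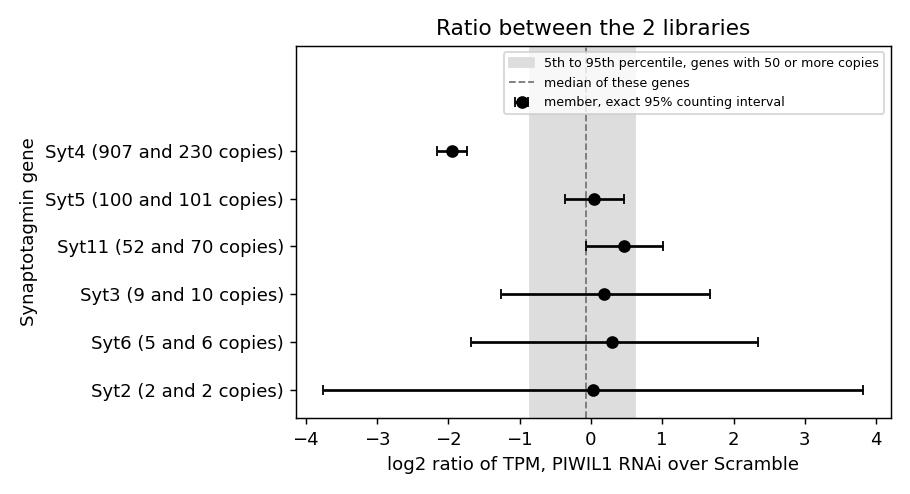
Log2 ratio of TPM (PIWIL1 RNAi over Scramble) of the 6 synaptotagmins listed in both libraries, with exact 95% intervals, over the range from the 5th to the 95th percentile (-0.85 to 0.62) of the 6010 genes listed in both libraries that had 50 or more copies over the 2. Syt4 lies outside this range at -1.94, and the other 5 points lie inside it.

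The make-up of the copies on the 7 listed members differed between the libraries. It is not the make-up of the family, since Syt7, Syt12 and Syt13 were not analysed here and no tag at site 1 was listed for Syt1, Syt2 and Syt6. Syt4 supplied 84.4% of the 1075 copies on listed members in the Scramble library (exact binomial 95% interval 82.1 to 86.5%) and 54.2% of 424 copies in the PIWIL1 RNAi library (49.4 to 59.1%). The share of Syt5 was 9.30% (7.63 to 11.2%) in the first and 23.8% (19.8 to 28.2%) in the second. That of Syt11 was 4.84% (3.63 to 6.30%) and 16.5% (13.1 to 20.4%). All listed members summed to 317.4 TPM and 128.4 TPM. The difference in Syt4 alone, 198.2 TPM, was larger than the summed difference, since the relatives were slightly higher.

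By the thresholds of the study (FDR of 0.05 or less, here from a two-sided Fisher's exact test adjusted over all genes, and a log2 ratio of 0.58 or more in size), 1 of the 7 members, Syt4, was called lower and none was called higher. Of all 9894 genes, 591 (5.97%) were called lower and 293 (2.96%) higher; with library totals scaled by TMM these counts were 459 and 398, with the same call for each member. The choice of members used this contrast, so nothing is read from that count. The test compares 2 libraries, not the conditions. In edgeR's exact test with a coefficient of variation between cultures assumed to be 0.2, Syt4 was still called, 1 of 2 genes called lower in the whole series, and with 0.4 it was not.

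The copies of Syt4 were spread over 21 tags at 18 sites. At site 1, nearest the 3′ end, there were 616 copies under Scramble and 142 under PIWIL1 RNAi, a log2 ratio of -2.08 (interval -2.36 to -1.82). The other sites held 291 and 88 copies together, a log2 ratio of -1.69 (-2.05 to -1.34). The lower level was thus read at the 3′ end and along the rest of the transcript, in the same 2 libraries. At site 1 it rests almost wholly on 1 tag ending in TG, with 614 and 140 copies. The median log2 ratio of tags with that end was -0.67 (described below). The ratios and shares by site therefore also carry the differences between tag ends. Site 1 held 67.9% of the Syt4 copies under Scramble and 61.7% under PIWIL1 RNAi, against 62.7% and 64.6% over all genes.

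Site by site, 16 of the 18 sites had fewer copies in the PIWIL1 RNAi library. The exceptions were site 14 (listed in the PIWIL1 RNAi library alone, 3 copies) and site 17 (2 and 3 copies). Sites 5, 7, 9, 13 and 16 were listed in the Scramble library alone, with 37 copies in all, the most at site 5 (14 copies). Copies at a site fell below what the tables list once a tag had a single copy, so these sites cannot be read as empty.

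**Figure D3:**
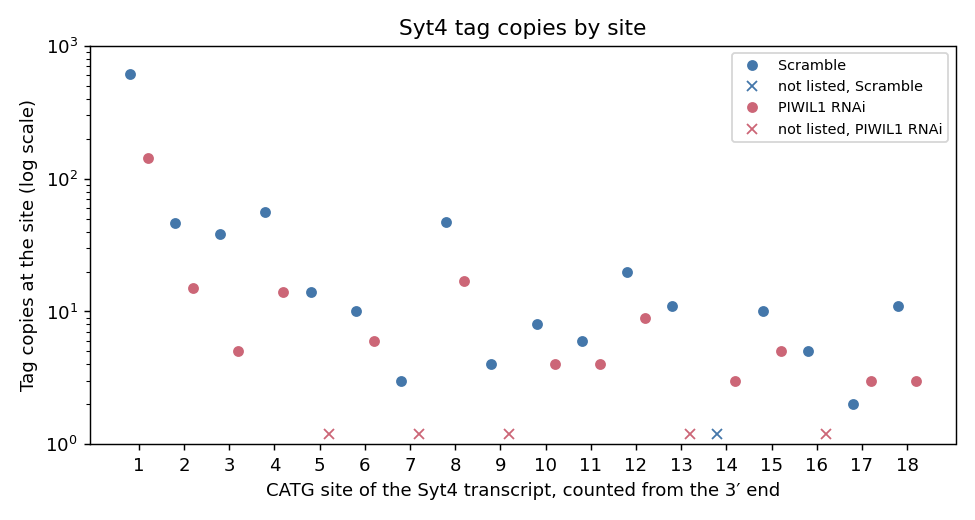
Tag copies of Syt4 (log scale) at each of its 18 CATG sites, counted from the 3′ end, in the 2 libraries, with crosses at the bottom for sites not listed in a library. Site 1 had 616 and 142 copies, and 16 sites had fewer copies in the PIWIL1 RNAi library.

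The tag at site 1 shown above went from 614 copies to 140. The tags at sites 2, 3 and 4 went from 46 to 15, from 38 to 5 and from 56 to 14 copies, and those at sites 8 and 12 from 45 to 15 and from 20 to 9. Their log2 ratios ran from -2.89 at site 3 to -1.12 at site 12, and the interval of the last one (-2.44 to 0.08) included 0. The 15 tags with fewer than 20 copies had 88 and 32 copies in all, a log2 ratio of -1.42 (-2.06 to -0.82).

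The tags of Syt4 are not all separate observations. The last 12 bases of the tag at site 11 are the start of the tag at site 10, so these neighbouring sites share sequence. In addition, 3 tags differ by a single base from the most copied tag of their site. Counting from the first base of the tag, these differences were G21C and A16G at site 1 and A21T at site 8. Such tags held 4 copies in each library, so they had little weight in the total.

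The ratio of a tag between these libraries differed with its last bases. Over the 16021 tags with at least 20 copies, the median log2 ratio (with 0.5 copies added to each library, as in all values of this and the next 2 paragraphs) was -0.08. Among genes outside the family, for the 865 tags that end in TG, like that of Syt4 at site 1, the median was -0.67 with quartiles of -1.29 and -0.02. The site 1 tag of Syt4 had -2.09, and 4.86% of these 865 tags were lower still. For the 633 tags that end in GT, like that at site 3, the median was also -0.67, and 3 of them were lower than the Syt4 tag (-2.77).

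The remaining tags of Syt4 had ends for which the median lay near 0. The site 4 tag had -1.93 against a median of -0.08 over 232 tags ending in CG, of which 1 was lower. The site 2 tag had -1.55 against -0.10 over 896 tags ending in GA, with 6 lower. Against a median of 0.04 over 804 tags ending in TA, the tag at site 8 had -1.52 and that at site 12 had -1.07, with 8 and 27 of these tags lower. All 6 tags of Syt4 thus lay below the lower quartile for their end, with differences of -1.11 to -2.10 from its median. With copies corrected for the median of each end, Syt4 had 773 and 266 copies and a log2 ratio of -1.50, and it was still called lower.

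The tags of Syt5 and Syt11 with 20 or more copies lay on the other side. The Syt5 tag at site 1 went from 76 to 90 copies, and its value of 0.28 was near the median of 0.16 for its end, CA. Its rarer tags mostly went down. Those at sites 4 and 5 went from 8 to 4 and from 7 to 4 copies. The tags at sites 2 and 3 (5 and 4 copies) were listed under Scramble alone, and that at site 6 (3 copies) under PIWIL1 RNAi alone. The ratio of Syt5 thus rests mainly on site 1, with 76.0% and 89.1% of its copies. The Syt11 tags at site 1 (30 and 46 copies) and site 4 (11 and 12 copies) had 0.64 and 0.16, above the medians of 0.16 (AA) and -0.39 (AT) for their ends. None of the 40 tags of the family ended in a run of 8 or more A.

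**Figure D4:**
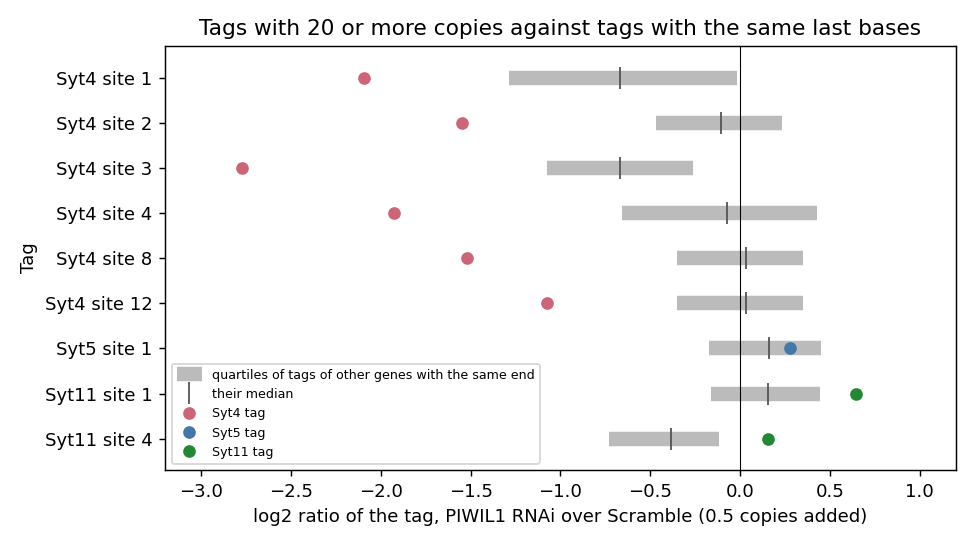
Log2 ratio (0.5 copies added) of the 9 tags of Syt4, Syt5 and Syt11 with 20 or more copies over the 2 libraries, over the quartiles (grey bars) and median (tick) of tags of genes outside the family with the same last bases. All 6 tags of Syt4 lie to the left of the grey bar, and the tags of Syt5 and Syt11 do not.

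Among the 394 genes with at least 6 tags of 20 or more copies, Syt4 was the 1 gene in which every such tag had a log2 ratio (0.5 copies added) below -1. With the study's threshold of 0.58 for a fall in place of 1, there were 2 such genes, Syt4 included. Syt4 has 6 such tags, the highest at -1.07, so both cut-offs lie close to its own values. Its fall was already known, and genes with more tags have more tags to pass. Nothing is therefore read from this count. The median of Syt4 over the 6 tags was -1.74, and 1 of the 394 genes had a lower one.

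Transcripts of other proteins with tandem C2 domains were read from few tag copies. Of 12 such genes looked up by symbol, 8 were not matched, and no level is given for them. The 4 matched genes, Doc2b, Doc2g, Rph3a and Esyt1, had 2 to 14 copies in a library. None was called, which says little for 4 genes of so few copies when 5.97% of all genes were called lower and 2.96% higher, and their median log2 ratio was 0.56. These genes are named after their values were seen. Esyt1, which tethers the endoplasmic reticulum to the plasma membrane, had 9 and 14 copies.

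The partners of synaptotagmins in vesicle fusion were read at greater depth. Of 21 genes, 17 were listed, 2 were called lower and none higher, where 5.97% and 2.96% of all genes were, and the median log2 ratio over the 16 with copies in each library was -0.02. The count of higher genes depended on the setting, since Vamp1, a relative of Vamp2, was called higher under TMM (1.03) and DESeq2 (1.02) scaling and Nsf, which takes SNARE complexes apart, under the correction for tag ends (0.83). Snap25, a SNARE of the plasma membrane which is also among the neuron markers, fell from 918 to 545 copies (271.1 and 165.0 TPM), a log2 ratio of -0.72 (interval -0.87 to -0.56). Cplx2, a complexin that binds the assembled SNARE complex, fell from 44 to 7 copies, a log2 ratio of -2.62 (-4.01 to -1.45). Its most copied tag, with 37 and 5 of these copies, has an end for which the median was -0.67.

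Other abundant partners that were not called had ratios closer to 1. Vamp2, the SNARE of the vesicle, had 1415 and 1687 copies (log2 ratio 0.29), and Rab3a, a GTPase of synaptic vesicles, had 1167 and 1302 (0.19). Stx1a, the syntaxin of the plasma membrane, had 269 and 249 copies (-0.08), and Cplx1, the other complexin, had 701 and 650 (-0.07). Sv2a, a vesicle glycoprotein that binds Syt1, had 290 and 255 copies (-0.15), and Napa, which recruits Nsf to used SNARE complexes, had 377 and 409 (0.15).

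Genes of dense core vesicles, the organelle on which Syt4 resides, included 3 of 14 listed genes that were called lower and none called higher, beside the 5.97% and 2.96% of all genes. Ptprn2, a phosphatase-like membrane protein of these vesicles, fell from 57 to 15 copies, a log2 ratio of -1.89 (-2.82 to -1.05). Only 1 of its 5 tags had at least 20 copies. That tag, at site 2, held 45 and 7 of the copies and has an end for which the median was -0.67. The granins Chgb and Scg3, which take part in forming the dense core, fell from 106 to 45 copies (-1.20) and from 161 to 71 copies (-1.14). Only 1 of the 2 tags of Scg3 with at least 20 copies was lower. With copies corrected for the tag end Chgb (-0.68) and Snap25 (-0.57) were no longer called, whereas Ptprn2 (-1.53), Scg3 (-1.33) and Cplx2 (-2.24) were.

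The other genes of this list were not called, and their median with the called ones was -0.23. Cpe, the carboxypeptidase that trims neuropeptides, had 783 and 772 copies (231.2 and 233.7 TPM), a log2 ratio of 0.02. Its interval (-0.13 to 0.16) lay above that of Syt4 at a similar depth. Cadps, which primes these vesicles for release, was called higher under TMM scaling (0.59).

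Since Syt4 can be induced by depolarization, 12 genes induced by neuronal activity were also looked up. Of these, 6 were listed and none was called, which says little beside shares of 5.97% lower and 2.96% higher over all genes, and the median log2 ratio of the 5 with copies in each library was 0.04. Fos, Fosb, Egr1, Egr2, Egr3 and Npas4 were not matched, so the list was read mainly from Dusp1, with 118 copies in each library, Homer1 (77 and 81) and Junb (44 and 38), named for their copies after these were seen.

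**Figure D5:**
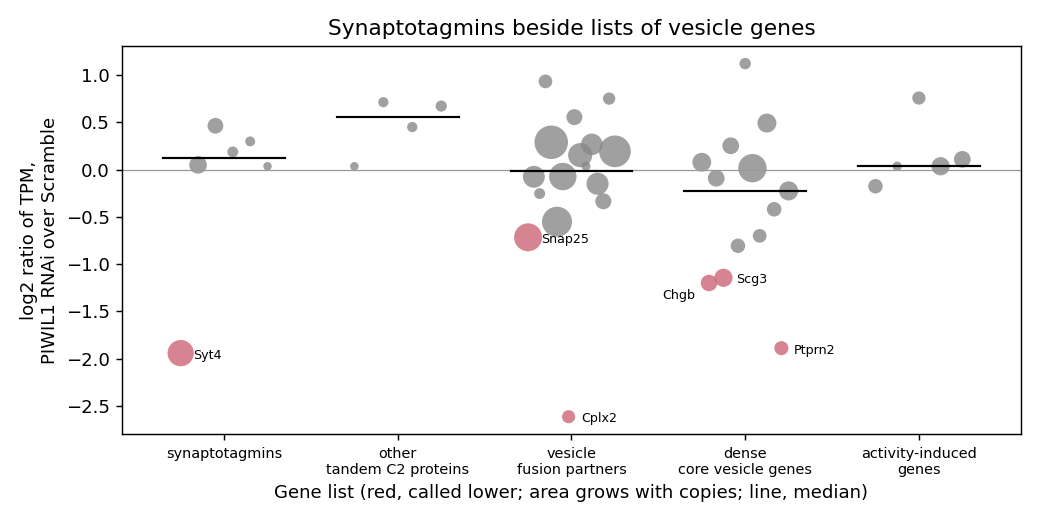
Log2 ratio of TPM (PIWIL1 RNAi over Scramble) of each gene listed in both libraries, by list, with the point area growing with the copies, called genes in red and the median of each list as a line. Syt4 stands alone among the synaptotagmins, and the other called genes are Snap25, Cplx2, Chgb, Scg3 and Ptprn2, all lower.

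In the deposited GO annotation, 31 genes carried the component term synaptic vesicle, among them 6 of the 7 listed members (Syt5 had no such term). Syt4 was the one gene of the 31 called lower. Slc17a7, the vesicular glutamate transporter of cortical neurons, was the one called higher, with 108 and 163 copies and a log2 ratio of 0.63, and it is named here after its value was seen. With 5.97% of all genes called lower and 2.96% higher, 1 call in each direction among 31 genes does not set the term apart. Over the 26 of these genes with copies in each library the median log2 ratio was -0.05.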

How the data were processed

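Per the file headers, the authors deposited for each gene the tag count, the same value as TPM (per 1000000 clean tags, without regard to gene length), GO terms, and the copy count and site of each tag. The mapping program and the test behind the authors' FDR are not given in the sources used here, and the submitters' processing notes name the genome build rn4. Symbols came from a RefSeq table of another assembly by accession (9337 of 9894 genes), so no coordinates are given. No tag with 1 copy was listed, so no floor is given for a gene that was not listed.

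The number of clean tags was worked out from counts and TPM, and the log2 ratio was taken from copies and clean tags. Calls rest on Fisher's exact test on tags on genes with Benjamini-Hochberg adjustment over all genes. Tested on simulated data of 9894 genes that varied by counting alone, it recovered 199 of 200 changed genes and called 9 unchanged ones. The changed genes were drawn from those with many copies and given changes well beyond the threshold. Recovery for genes of few copies or with small changes was therefore not tested. Intervals are exact (Clopper-Pearson, 95%). For the correction of tag ends, tags were grouped by their final 2 bases, those with a longer final run of A by its length, and the median log2 ratio of each group less that of all tags (tags with at least 20 copies, from the alternate genes of the list) was removed. The genes named are all members, the called genes and those with at least 500 copies in the partner lists, and the 5 genes nearest to Syt4, except 1 gene of the partner lists that is not reported here. The members and lists were chosen with earlier results of these data known. Alternatives were other library totals (TMM, DESeq2), other tags, an assumed variation and other thresholds. Python 3.11.15, SciPy 1.17.1, pandas 2.3.3, R 4.3.3, edgeR 4.0.16 and DESeq2 1.42.0 were used.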

Additional observations from a re-analysis of the deposited data

How the results depend on the processing

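No paired analysis was possible because each condition had 1 library, and no library could be left out. Syt4 was called lower under 11 of 12 alternatives, the exception being an assumed coefficient of variation of 0.4, under which 0 members, 0 genes lower and 0 genes higher were called. Its log2 ratio ran from -2.08 (site 1 alone) to -1.50 (copies corrected for the tag end) over 10 alternatives, and was -1.67 with the most copied tag of each gene left out. The share of Syt4 among member copies differed by -30.1 percentage points between the libraries, -22.7 with the correction and -17.5 without the most copied tags. The median of the relatives ran from 0.02 to 0.45, on 2 to 6 genes. Over the whole series 591 genes were called lower and 293 higher. The correction for the tag end gave 376 lower and 179 higher, an assumed coefficient of variation of 0.1 gave 170 and 114, one of 0.2 gave 2 and 15, and a log2 threshold of 1 gave 262 and 146. The cause of these changes was not tested. Tags on genes as totals of the log2 ratio, and all alternatives for the called partner genes, were chosen after seeing the data. TMM scaling gave 459 genes lower and 398 higher. Of 108 recomputed values, 91 stayed within a set margin or kept their call, 15 moved beyond the margin, and 2 were weaker (no longer called). A reversal was looked for only in the log2 ratios of Syt4 and of the called partner genes, where 0 were found. With 1 library per condition, variation between cultures is not measured, and Syt2, with 2 copies in each library, had too few for a difference of the size seen in Syt4 to be detectable.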
